A study of Mus musculus with 6 samples.

Results

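Respiratory complex I, NADH:ubiquinone oxidoreductase, is represented in the deposited count table by 45 genes whose symbols start with Nduf, out of 23282 rows. They were chosen by symbol, with earlier results of these data known. Of the 45, 38 are subunit genes and 7 are assembly factor genes (Ndufaf), whose products build the complex without remaining in it. The libraries are Sdha-KO 1 to 3, from mice with floxed Sdha alleles and LysM-Cre, and WT 1 to 3, from wildtype mice. LysM-Cre is Cre recombinase expressed from the Lyz2 locus, which is active in macrophages and other myeloid cells. Sdha is the gene of the flavoprotein of complex II, succinate dehydrogenase. All 6 libraries are alveolar macrophages, the phagocytes of the lung's air spaces, sorted from lung as CD45+ CD11c+ F4/80+ SiglecF+ CD11b- cells. The labels give no age, sex or strain, and do not tell whether a library comes from 1 mouse or several; the p-values therefore reflect only how these libraries vary, which may be partly technical. Each replicate number is also a batch number in the labels, which makes 3 batches with an Sdha-KO and a WT library in each.

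Complex I takes electrons from NADH and passes them to ubiquinone, the carrier that complex II also reduces, and pumps protons across the inner mitochondrial membrane. Its peripheral arm reaches into the matrix and holds the flavin, the iron-sulphur clusters and the site of NADH oxidation. The membrane arm holds the proton pumps, whose core is encoded by mitochondrial DNA and is not analysed here. Around the core sit accessory subunits that hold the complex together and are needed for its assembly. In macrophages, complex I is known as a source of reactive oxygen species when electrons are driven back into it from reduced ubiquinone.

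Read depth and composition limit what these genes can show. Total counts ranged from 5400160 to 8472907 in Sdha-KO libraries and from 5813531 to 8239600 in WT libraries. Levels below are CPM, the counts of a gene relative to the library's size after a correction for composition, and since the kit reads the 3' ends of transcripts they were not divided by length. Sdha itself had 26.1, 21.0 and 22.8 CPM in Sdha-KO libraries, all below the 56.0, 65.5 and 72.2 CPM of WT libraries (log2 fold change -1.47, edgeR adjusted p = 1.00). Such 3' reads may lie outside the deleted exons, which the labels do not name. Both batch 1 libraries stand apart, with 5438 genes detected in Sdha-KO 1 and 7893 in WT 1, against 11383 to 13050 in the other 4. Siglecf, the gene of a sorting marker, had no count in Sdha-KO 1. It had 39.6 and 45.3 CPM in Sdha-KO 2 and 3, against 103 to 138 CPM in WT libraries. Sdha-KO 1 had no count for 40.7% of tested genes with at least 10 counts in each library of batches 2 and 3. Whether the 0 of Siglecf comes from the cells or from missing counts was not tested. The 12 alveolar macrophage markers summed to 5900 to 7847 CPM in Sdha-KO and 7588 to 9079 CPM in WT libraries. Chil3 made up much of each sum, at 3510 to 5380 CPM in Sdha-KO and 4250 to 5420 CPM in WT libraries. Single markers differed in direction. Car4 lay wholly above WT in Sdha-KO, at 935, 757 and 888 CPM against 277, 485 and 404 CPM. Ear1, Ear2, Krt79 and Siglecf lay wholly below, and the others overlapped between genotypes. Markers of monocytes and interstitial macrophages, all 8 of which had counts, summed to 79.5 to 228 CPM in Sdha-KO and 30.4 to 54.1 CPM in WT libraries, without overlap. Of 7 T and NK cell markers, 6 had counts, and Ncr1 was at 0 in all 6 libraries. They summed to 72.3 to 197 CPM in Sdha-KO and 264 to 524 CPM in WT libraries, also without overlap. Nearly all of this was Cd2, with 197, 66.8 and 141 CPM in Sdha-KO and 524, 258 and 368 CPM in WT libraries. None of the other T and NK cell markers exceeded 5.81 CPM in any library. Dendritic cell markers summed to 5.17 to 176 CPM in Sdha-KO and 11.1 to 28.8 CPM in WT libraries. Neutrophil markers summed to 79.9 to 189 CPM in Sdha-KO and 62.0 to 92.3 CPM in WT libraries, and lung epithelium markers to 118 to 700 CPM in Sdha-KO and 229 to 407 CPM in WT libraries. Endothelium and fibroblast markers summed to at most 81.4 CPM in Sdha-KO and 94.8 CPM in WT libraries, and erythroid markers to at most 388 CPM in Sdha-KO and 249 CPM in WT libraries. B cell markers summed to at most 27.6 CPM in Sdha-KO and 23.3 CPM in WT libraries, with Pax5 at 0 in all 6, and eosinophil markers were at or near 0, with Epx and Prg2 at 0 in all 6. The part of these marker levels in the results on complex I was not tested. Sex differs between libraries too: Xist had 2683, 498 and 822 counts in Sdha-KO 1 to 3 against 0, 4608 and 6055 in WT 1 to 3, and the Y-linked Ddx3y had 0, 354 and 432 counts in Sdha-KO 1 to 3 against 222, 0 and 143 in WT 1 to 3. Sdha-KO 2, Sdha-KO 3 and WT 3 had counts of both genes.

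The summed level of complex I subunit genes was slightly higher in Sdha-KO than in WT within each batch, with overlap between the genotypes, and no single gene passed the test. The 38 subunit genes summed to 2854, 1838 and 2005 CPM in Sdha-KO 1 to 3 and to 2354, 1715 and 1847 CPM in WT 1 to 3. The mean was 2233 ± 545 CPM in Sdha-KO and 1972 ± 337 CPM in WT libraries (SD, n = 3 each). The ratio of Sdha-KO to WT was 1.21, 1.07 and 1.09 in batches 1, 2 and 3. These sums include Ndufab1, which the filter on low counts left untested. Ndufab1 had 104 CPM in Sdha-KO 1, 0.490 CPM in WT 1 and at most 1.91 CPM in every other library. Ndufa4 and Ndufa4l2, which have roles outside complex I, are also included. The log2 ratio of the means was 0.18 over all 6 libraries, -0.04 without Sdha-KO 1, and 0.12 when Sdha-KO 1 and WT 1 were both left out. In RNA from a sorted population, fewer cells of a type and less RNA per cell cannot be told apart.

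**Figure D1:**
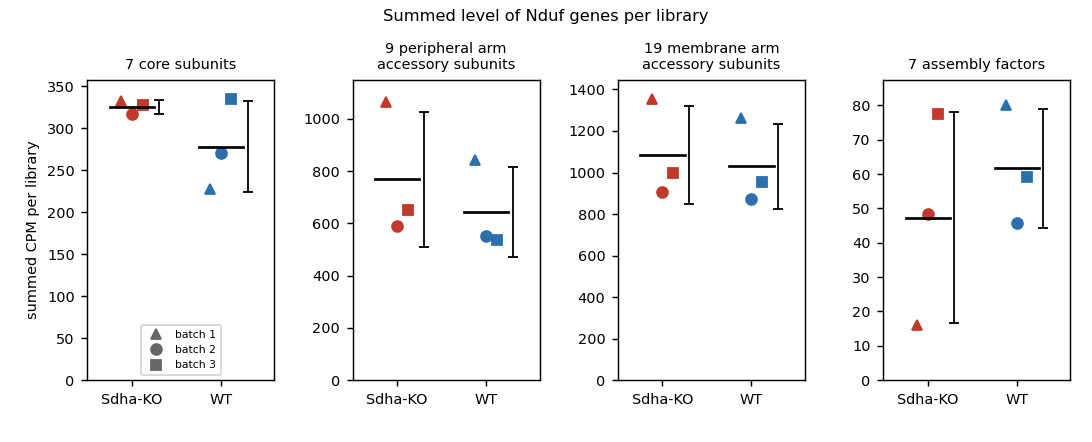
Summed CPM of 4 groups of Nduf genes in each library (vertical axis), Sdha-KO left and WT right; points are libraries with 1 marker shape per batch, the horizontal line is the mean and the bar beside it ± 1 SD (n = 3). The genotypes overlap in every panel, and Sdha-KO 1 has the lowest assembly factor sum, 16.1 CPM.

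No Nduf gene was called out of 44 tested by edgeR's quasi-likelihood test (Benjamini-Hochberg adjusted p under 0.05 over 9963 genes), where 0.0502% of all tested genes were called, 0.0401% higher and 0.01% lower in Sdha-KO. None reached an unadjusted p under 0.05 either, against 2.64% of all tested genes. DESeq2 called none and had none at an unadjusted p under 0.05, and limma-voom called none, with Ndufb3 and Ndufa11 at an unadjusted p under 0.05. The adjusted p was 1.00 for every tested Nduf gene in edgeR, so it is not repeated below. The fold change was above 0 in 24 of 44 Nduf genes, against 45% of all tested genes. Its median was 0.11 on the log2 scale in 37 tested subunit genes and -1.04 in 7 assembly factor genes, beside -0.13 in all tested genes. The subunit median was below 0 in 4 of the alternatives, at -0.07 with the replicate block, -0.14 with limma-voom, -0.07 without Sdha-KO 3 and -0.03 without WT 2. With the block and with limma-voom the median of all tested genes was -0.48 and -0.65. The limits were wide: the 95% interval reached beyond both -1 and 1 on the log2 scale for 31 of the 44 genes and lay within -2 and 2 for 14. The narrowest standard error was 0.46, for Ndufa10, and the widest was 2.86, for Ndufa4l2, the hypoxia-induced paralog of Ndufa4.

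**Figure D2:**
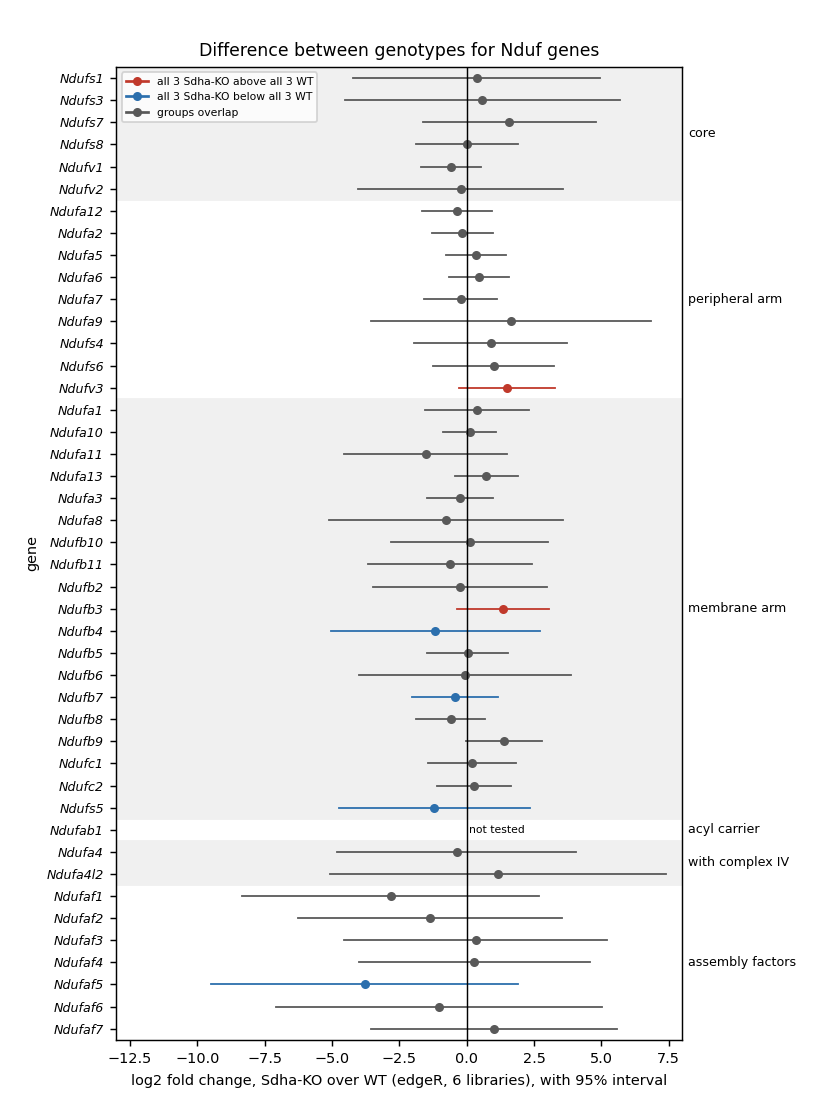
log2 fold change of 43 of the 44 tested Nduf genes, Sdha-KO over WT (horizontal axis), with its 95% interval from the edgeR fit of 6 libraries; genes run down the page by role. Every interval drawn crosses 0, and 6 genes are coloured because the libraries of the genotypes do not overlap, 2 with Sdha-KO above and 4 with Sdha-KO below.

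In 7 of the 44 tested genes the genotypes did not overlap. All 3 Sdha-KO libraries lay above all 3 WT libraries for 3 genes, among them Ndufv3 and Ndufb3, and below them for Ndufb4, Ndufb7, Ndufs5 and Ndufaf5. Over all tested genes, 5.04% had Sdha-KO wholly above and 9.27% wholly below, so these counts are near the background.

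The core subunits of the peripheral arm carry the flavin and the iron-sulphur clusters. Ndufs7, an iron-sulphur subunit beside the ubiquinone site, had 118, 16.2 and 33.5 CPM in Sdha-KO 1 to 3 and 0.123, 13.3 and 42.7 CPM in WT 1 to 3. Its highest and lowest levels both came from batch 1, with 1420 counts in Sdha-KO 1 and 1 count in WT 1, while the ratio of Sdha-KO to WT was 1.22 in batch 2 and 0.786 in batch 3.

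Ndufv1, which binds NADH and the flavin, had 45.6, 85.7 and 71.7 CPM in Sdha-KO and 126, 80.8 and 96.5 CPM in WT libraries, with overlap (log2 fold change -0.58, 95% interval -1.71 to 0.54). Its partner Ndufv2, an iron-sulphur protein, had no count in Sdha-KO 1, 62.7 and 83.6 CPM in Sdha-KO 2 and 3, and 31.6, 62.4 and 76.5 CPM in WT libraries. In batches 2 and 3 the Ndufv2 levels were close to equal, at ratios of 1.00 and 1.09. Ndufs1, the largest iron-sulphur subunit, was also at 0 in Sdha-KO 1, with 28.5 and 39.8 CPM in Sdha-KO 2 and 3 and 0.368, 23.7 and 28.8 CPM in WT libraries. Ndufs3, a hydrophilic core subunit, was at 0 in Sdha-KO 1 and in WT 1. It had 36.3 and 22.7 CPM in Sdha-KO 2 and 3, against 26.9 and 12.7 CPM in WT 2 and 3. Both genes were higher in Sdha-KO in batches 2 and 3, by 1.20 and 1.38 times for Ndufs1 and 1.35 and 1.78 times for Ndufs3. Ndufs8, which carries iron-sulphur clusters near the ubiquinone site, had 62.4, 33.8 and 28.9 CPM in Sdha-KO and 57.1, 29.3 and 38.5 CPM in WT libraries. The Ndufs8 means were 41.7 ± 18.1 CPM in Sdha-KO and 41.6 ± 14.2 CPM in WT libraries (SD, n = 3 each), with a 95% interval of the log2 difference of -1.90 to 1.91.

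The 7 core genes summed to 332, 317 and 328 CPM in Sdha-KO, against 228, 271 and 335 CPM in WT libraries. WT 3 lay above all 3 Sdha-KO libraries, so the groups overlapped. The even Sdha-KO sums hide single core genes that ranged from 0 to 118 CPM in Sdha-KO 1.

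Among the 9 accessory subunits of the peripheral arm, 6 had a fold change above 0, and the median was 0.45 on the log2 scale. Ndufv3, a small subunit beside Ndufv1 (chromosome 17, 31520115 to 31531331, plus strand), had 167, 47.6 and 51.9 CPM in Sdha-KO and 8.46, 40.6 and 46.5 CPM in WT libraries. The groups did not overlap (log2 fold change 1.48, SE 0.82), but the size came from batch 1. In batches 2 and 3 Sdha-KO was 1.17 and 1.12 times WT, and without both batch 1 libraries the log2 fold change was 0.20. Ndufa9, a subunit that binds NADPH at the junction of the arms (chromosome 6, 126821721 to 126849136, minus strand), had no count in Sdha-KO 1 or WT 1. It had 36.1 and 33.7 CPM in Sdha-KO 2 and 3, against 11.5 and 10.8 CPM in WT 2 and 3. Sdha-KO was thus 3.13 times WT in batch 2 and 3.11 times WT in batch 3. In the 4 libraries of those batches its log2 fold change was 1.65 (SE 0.51, edgeR adjusted p = 0.342, and adjusted p = 0.221 with the replicate block), which does not pass the test. Ndufa9 was singled out after its values were seen.

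Ndufa2, a thioredoxin-like subunit, had 346, 79.8 and 182 CPM in Sdha-KO and 354, 157 and 167 CPM in WT libraries, with overlap. Ndufa6, which binds the acyl carrier subunit, had 164, 80.5 and 107 CPM in Sdha-KO and 128, 64.8 and 63.8 CPM in WT libraries, higher in Sdha-KO within each batch while the groups overlapped (log2 fold change 0.45, 95% interval -0.66 to 1.57). Ndufs6, a zinc-binding subunit, had 139, 20.8 and 36.5 CPM in Sdha-KO and 4.53, 40.4 and 53.3 CPM in WT libraries. Its direction in batch 1 was opposite to that in batches 2 and 3. Ndufs4, whose loss in mice gives a Leigh-like brain disease, had 42.6, 35.0 and 52.3 CPM in Sdha-KO and 0.735, 40.4 and 29.3 CPM in WT libraries. Ndufa5, Ndufa7 and Ndufa12 overlapped between genotypes, with log2 fold changes of 0.35, -0.22 and -0.34. Ndufa7 was 1.54 and 1.51 times higher in Sdha-KO in batches 2 and 3 and lower in batch 1, where it had 46.8 CPM in Sdha-KO and 133 CPM in WT.

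The 19 accessory subunits of the membrane arm were split evenly, with 9 fold changes above 0, 10 below and a median of -0.06 on the log2 scale. Ndufb3 (chromosome 1, 58586384 to 58595964, plus strand), a small membrane subunit, had 85.6, 73.3 and 61.7 CPM in Sdha-KO and 11.6, 48.4 and 26.7 CPM in WT libraries. The genotypes did not overlap, and Ndufb3 was higher in Sdha-KO in each batch, by 1.51 and 2.31 times in batches 2 and 3. The mean was 73.5 ± 11.96 CPM in Sdha-KO and 28.9 ± 18.5 CPM in WT libraries (SD, n = 3 each; log2 fold change 1.35, 95% interval -0.36 to 3.05). Ndufb9, which like Ndufa6 binds acyl carrier protein (chromosome 15, 58933756 to 58939488, plus strand), had the smallest p of all Nduf genes, 0.0543 before adjustment in edgeR. It had 301, 79.4 and 57.2 CPM in Sdha-KO and 78.1, 45.7 and 44.4 CPM in WT libraries, higher in Sdha-KO within each batch, with WT 1 above Sdha-KO 3. Ndufa13, also known as GRIM-19, had 272, 85.5 and 87.6 CPM in Sdha-KO and 101, 69.0 and 97.3 CPM in WT libraries. Its higher mean in Sdha-KO came from batch 1, and without both batch 1 libraries the log2 fold change was 0.07.

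The membrane arm also held 3 genes that lay wholly below WT in Sdha-KO. Ndufb7 and Ndufs5 encode small cysteine-rich subunits on the side of the intermembrane space. Ndufb7 had 41.1, 31.8 and 52.6 CPM in Sdha-KO and 59.9, 52.8 and 57.0 CPM in WT libraries, a narrow gap of 52.6 CPM in Sdha-KO 3 against 52.8 CPM in WT 2. Ndufs5 had 9.35, 10.6 and 11.6 CPM in Sdha-KO and 39.3, 16.2 and 17.2 CPM in WT libraries, with ratios of 0.654 and 0.676 in batches 2 and 3 (log2 fold change -1.20, SE 1.63). Ndufb4, a membrane subunit, had no count in Sdha-KO 1, 20.1 and 26.7 CPM in Sdha-KO 2 and 3, and 48.3, 27.7 and 28.9 CPM in WT libraries. Its gap outside batch 1 was also narrow, 26.7 CPM in Sdha-KO 3 against 27.7 CPM in WT 2. With scaling by library totals alone, 1 Nduf gene was wholly below WT, against 4 with composition factors.

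Ndufa11, a membrane arm subunit, had both its highest and its lowest level in batch 1. It had 0.167, 58.2 and 32.5 CPM in Sdha-KO and 135, 47.7 and 77.8 CPM in WT libraries, which is 2 counts in Sdha-KO 1 and 1098 in WT 1. Ndufb6 and Ndufb10 were likewise at 1.00 and 1.17 CPM in Sdha-KO 1 and at 11.3 CPM or more in every other library. Ndufa10, a subunit related to nucleoside kinases, was among the most even genes, with 95.05, 105 and 134 CPM in Sdha-KO and 135, 77.4 and 96.4 CPM in WT libraries. Its 95% interval, -0.88 to 1.10 on the log2 scale, was the narrowest among Nduf genes. Ndufb5, an accessory subunit, had 113, 75.9 and 64.5 CPM in Sdha-KO and 176, 26.0 and 46.5 CPM in WT libraries, higher in Sdha-KO by 2.92 and 1.39 times in batches 2 and 3 and lower in batch 1.

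Ndufa1 and Ndufb11 are the Nduf genes on the X chromosome. Ndufa1 had 73.4, 44.8 and 27.1 CPM in Sdha-KO and 18.99, 41.9 and 49.9 CPM in WT libraries. Ndufb11 had 10.8, 9.86 and 37.4 CPM in Sdha-KO and 29.7, 30.4 and 29.3 CPM in WT libraries, where its spread was the smallest of all Nduf genes (SD 0.570 CPM, n = 3). Both overlapped between genotypes, and sex also differed between these libraries; its part was not tested. The other membrane arm genes, Ndufa3, Ndufa8, Ndufb2, Ndufb8, Ndufc1 and Ndufc2, overlapped too, with log2 fold changes from -0.76 for Ndufa8 to 0.27 for Ndufc2.

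Ndufab1, Ndufa4 and Ndufa4l2 have roles outside complex I. Ndufab1 is the mitochondrial acyl carrier protein, which serves fatty acid and lipoic acid synthesis as well as complex I. It had 1241, 0 and 9 counts in Sdha-KO and 4, 6 and 15 counts in WT libraries, and it was the 1 Nduf gene left out by the filter on low counts. Sdha-KO 1 thus held nearly all of its counts, and the end of its transcript matches a pair of processed pseudogenes at 99.7% and 100% identity. Ndufa4, now counted as a subunit of complex IV, had no count in Sdha-KO 1, 23.4 and 16.8 CPM in Sdha-KO 2 and 3, and 21.0, 16.4 and 14.9 CPM in WT libraries. Ndufa4l2 had 0, 0 and 69 counts in Sdha-KO and 0, 11 and 17 counts in WT libraries. With counts in 1 of 3 Sdha-KO libraries, Ndufa4l2 gave a log2 fold change of 1.15 with a 95% interval of -5.08 to 7.39.

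**Figure D3:**
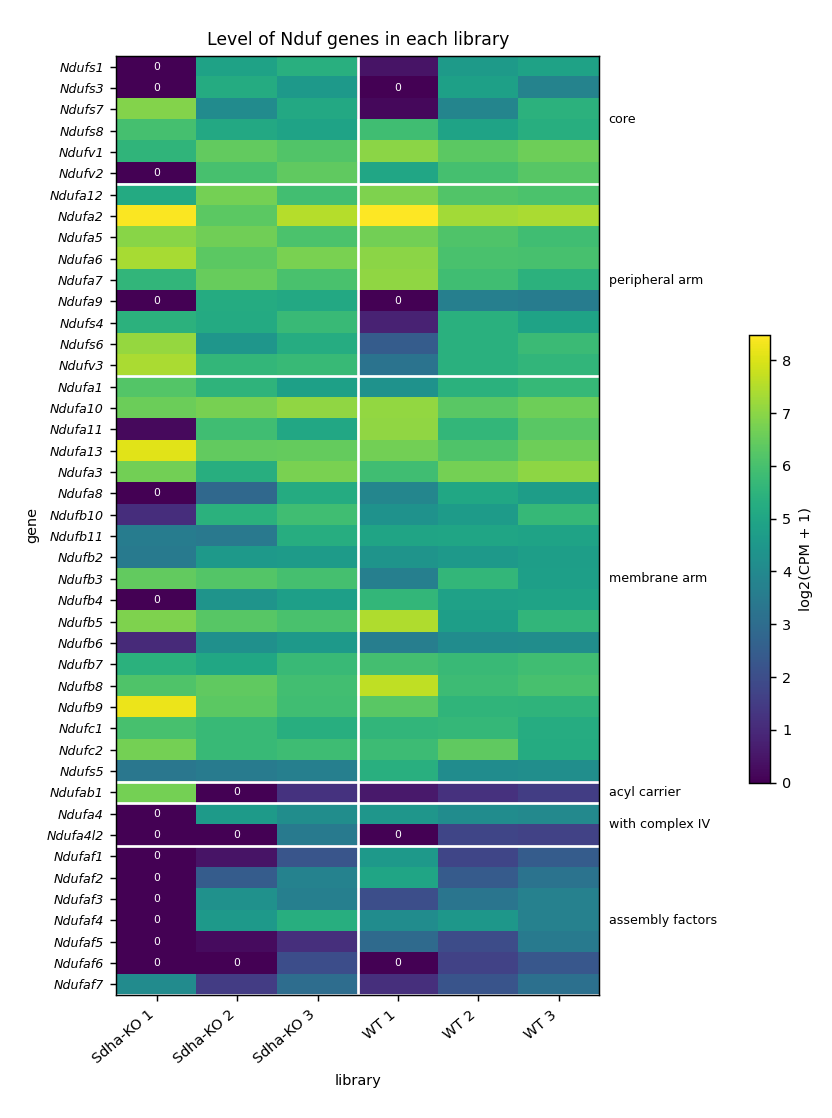
Level of 44 of the 45 Nduf genes in each library as log2(CPM + 1) (colour), Sdha-KO libraries left and WT libraries right, genes grouped by role; a 0 marks no count. Sdha-KO 1 has no count in 14 genes, 6 of the 7 assembly factors among them, and WT 1 has none in 4.

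The assembly factor genes had few counts, and Sdha-KO 1 had none for any of them but Ndufaf7. They summed to 16.1, 48.3 and 77.5 CPM in Sdha-KO and 80.1, 45.7 and 59.1 CPM in WT libraries, a ratio of 0.201 in batch 1 and of 1.06 and 1.31 in batches 2 and 3. Their median log2 fold change of -1.04 lay between -2.69, without Sdha-KO 3, and -0.15, without WT 3, when single libraries were left out, so its size was not fixed by these data.

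Ndufaf5 (chromosome 2, 140170649 to 140203689, plus strand), described in human cells as the enzyme that hydroxylates an arginine of the NDUFS7 subunit, was the assembly factor below WT in all libraries. It had 0, 1 and 8 counts in Sdha-KO and 54, 13 and 79 counts in WT libraries, or 0, 0.186 and 1.19 CPM in Sdha-KO against 6.62, 2.88 and 10.1 CPM in WT. In batch 2 the ratio was 0.0645 with an exact counting interval of 0.00152 to 0.429, and in batch 3 it was 0.119. It had the most negative log2 fold change of all Nduf genes (-3.79, SE 2.62, 95% interval -9.50 to 1.92), which did not pass the test. At this depth the level in Sdha-KO is close to that of single reads, and the count of 0 in Sdha-KO 1 allows up to 0.25 CPM, for counting error only.

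Ndufaf1, which works with Ecsit and Acad9 on the membrane arm, had 0, 2 and 25 counts in Sdha-KO and 182, 11 and 36 counts in WT libraries. It was lower in Sdha-KO within each batch, but Sdha-KO 3 lay above WT 2 in CPM. Ndufaf4, which with Ndufaf3 acts on the early peripheral arm, had 0, 22.9 and 38.5 CPM in Sdha-KO and 16.5, 21.3 and 12.4 CPM in WT libraries. Ndufaf3 itself had 0, 18.6 and 11.6 CPM in Sdha-KO and 3.06, 8.88 and 12.1 CPM in WT libraries. Both were above WT in batch 2, Ndufaf4 was also 3.11 times WT in batch 3 and Ndufaf3 was 0.961 times WT there, and both overlapped between genotypes.

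Ndufaf2, a paralog of Ndufa12 that holds its place during assembly, had 0, 4.46 and 12.4 CPM in Sdha-KO and 30.4, 4.44 and 8.28 CPM in WT libraries. Ndufaf7, an arginine methyltransferase of the mitochondrial matrix in human cells, had 16.1, 1.86 and 7.15 CPM in Sdha-KO and 1.23, 3.55 and 7.77 CPM in WT libraries. It was the 1 assembly factor with counts in Sdha-KO 1, and the end of its transcript matches stretches in transcripts of 31 other genes, so its count is uncertain. Ndufaf6, which is related to phytoene synthases, had 0, 0 and 20 counts in Sdha-KO and 0, 10 and 31 counts in WT libraries, too few to compare.

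Assembly factors that do not carry the Nduf symbol were given by a list that named 15 rows, of which 12 were tested. None was called; 5 had a fold change above 0 and 7 below, with a median of -0.47 on the log2 scale. Tmem261, also known as Dmac1, is needed for the distal membrane arm in human cells. It had 0, 10.6 and 9.39 CPM in Sdha-KO and 41.8, 8.21 and 12.2 CPM in WT libraries, with overlap. Foxred1, a flavoprotein needed at a middle stage of assembly, had 37.6, 11.9 and 10.4 CPM in Sdha-KO and 0, 24.0 and 5.60 CPM in WT libraries. For both genes the largest gap between genotypes was in batch 1.

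Several Nduf genes had no count in the batch 1 libraries. Of 40 Nduf genes with at least 10 counts in each library of batches 2 and 3, 10 had no count in Sdha-KO 1, which is 25%, and 2 had none in WT 1, which is 5%. Of all tested genes that met this minimum, 40.7% had no count in Sdha-KO 1 and 19.5% had none in WT 1. Sdha-KO 1 held the highest level of 14 of the 44 tested genes and the lowest or tied lowest of 21, and WT 1 held 13 and 12. Across the 45 genes, the Spearman correlation of log2(CPM + 1) was between 0.805 and 0.878 for pairs among the 4 libraries of batches 2 and 3. It was between 0.557 and 0.615 for Sdha-KO 1 with those 4 and 0.423 with WT 1. These values describe libraries that share genes of very different abundance.

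Within batches 2 and 3, more Nduf genes were higher in Sdha-KO than lower. Of 42 tested Nduf genes with counts in all 4 libraries, 19 were higher in Sdha-KO in both batches, or 45.2%, against 30.2% of all tested genes. In both batches 8 were lower, or 19%, against 30.8% of all tested genes. Subunit genes made up 17 of the 19 and 5 of the 8. Most of these differences were small: 3 genes, Ndufa9, Ndufb3 and Ndufa7, were over 1.5 times higher in both batches, where 11.2% of all tested genes were, and Ndufaf5 alone was over 1.5 times lower in both, where 10.9% were. The median log2 ratio of subunit genes was 0.25 in batch 2 and 0.17 in batch 3, beside 0.02 and -0.02 in all tested genes.

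Without both batch 1 libraries, 13 of 44 Nduf genes had Sdha-KO wholly above WT and 5 wholly below, against 20.4% and 23.5% of all tested genes. None passed edgeR's test, where 0.251% of all tested genes did, and none passed with the replicate block, where 3.01% did. Ndufb5 and Ndufa9 had an unadjusted p under 0.05 in these 4 libraries, where 10.2% of all tested genes had. With the replicate block Ndufb3, Ndufb5 and Ndufa9, all higher in Sdha-KO, and Ndufa3, lower in Sdha-KO, had an unadjusted p under 0.05, as did 11.7% of all tested genes. WT 2 and 3 hold more Xist and Sdha-KO 2 and 3 more Ddx3y, so genotype and sex cannot be told apart in them.

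**Figure D4:**
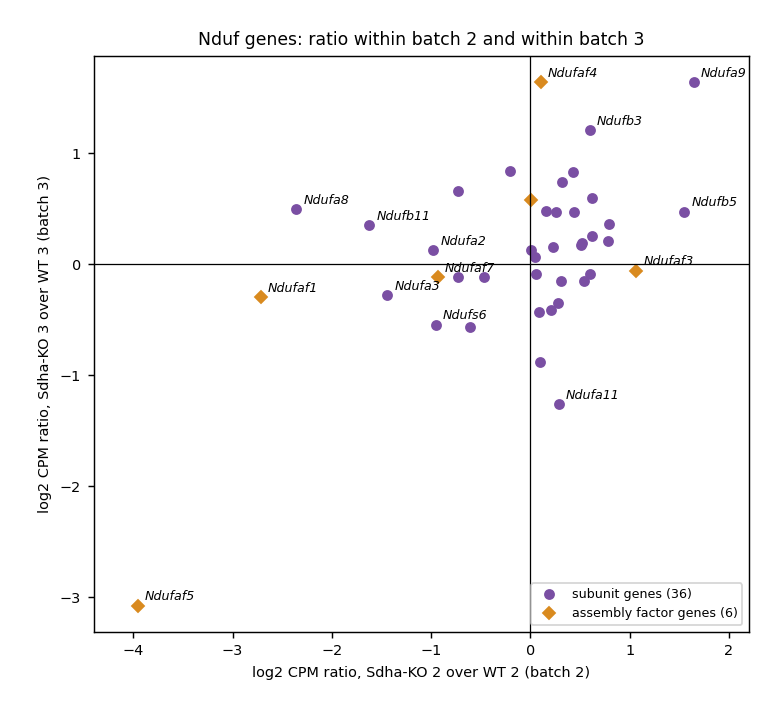
log2 ratio of CPM, Sdha-KO over WT, within batch 2 (horizontal axis) and within batch 3 (vertical axis) for the 42 tested Nduf genes with counts in all 4 libraries; circles are subunit genes and diamonds assembly factor genes. Ndufa9 lies at the upper right with a ratio of 3.13 and 3.11, and Ndufaf5 at the lower left with 0.0645 and 0.119.

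All 45 genes are annotated as protein-coding in GENCODE M21 (mm10) and lie on 16 chromosomes. Exons of 19 of them overlap those of another annotated gene, among them Ndufs1, Ndufs3, Ndufs6, Ndufa2, Ndufa3, Ndufa4l2, Ndufa9, Ndufa11, Ndufa13, Ndufab1, Ndufaf2, Ndufaf3, Ndufb2, Ndufb5, Ndufb6, Ndufb8, Ndufb9 and Ndufb11. The longest overlap was that of Ndufaf2 with a noncoding RNA on the other strand, 1955 exonic bases. The sources used here do not give whether counting used strand, so these counts are uncertain. The last 400 bases of 8 members, Ndufa11, Ndufa12, Ndufab1, Ndufb3, Ndufb11, Ndufs3, Ndufs5 and Ndufs6, match a processed pseudogene elsewhere at 95% identity or more over at least 100 bases. Their reads may be split or lost between copies. Neither an overlap nor a copy was found for Ndufv3, Ndufb4, Ndufb7 or Ndufaf5, while Ndufb3 and Ndufs5 have a copy.

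Promoters were matched for 39 of the 45 genes (RefSeq, GRCm38.p6, 250 bases before to 50 bases after the start). Their median GC content was 59.3%, beside 53.3% over 27025 genes. Letters of 3 motifs of factors known to act on respiratory chain genes were searched on both strands. The letters GCATGCGC, the core of the NRF1 motif, stood in 5 of the 39 promoters (12.8%, against 3.05% of all), and AAGATGGCG, the core of the YY1 motif, in 5 (12.8%, against 1.64%). The letters CCGGAAG, the core of the ETS motif bound by GABP, stood in 5 (12.8%, against 9.93%), those of Ndufaf1, Ndufb6, Ndufb7, Ndufs3 and Ndufs8. The NRF1 letters overlap their own reverse complement where GCGCATGC runs into them. No promoter held more than 1 of the 3 motifs.

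The 5 windows with the YY1 letters are shown for the position of the letters and because Ndufa9 is one of them. In all 5 the letters begin 22 to 35 bases after the start. These letters contain ATG, and whether they lie in coding sequence was not checked. Each line gives 30 bases 5′ to 3′ on the strand of the gene, with the searched letters in capitals.
Ndufa9: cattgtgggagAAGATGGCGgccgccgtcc
Ndufc1: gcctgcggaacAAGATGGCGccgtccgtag
Ndufs4: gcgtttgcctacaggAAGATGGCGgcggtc
Ndufs6: aagggtcaccggcAAGATGGCGgcggtgct
Ndufs7: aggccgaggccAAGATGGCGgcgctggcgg
They lie at chr6:126849097-126849126 (minus strand), chr3:51408915-51408944 (minus), chr13:114388045-114388074 (minus), chr13:73328433-73328462 (minus) and chr10:80249462-80249491 (plus) of GRCm38.p6. Without both batch 1 libraries the log2 fold changes of these 5 genes were 1.65, 0.07, 0.34, -0.70 and -0.16, which is both signs.

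The 5 windows with the NRF1 letters include 2 assembly factor genes, one of them Ndufaf5, the gene with the most negative fold change.
Ndufaf5: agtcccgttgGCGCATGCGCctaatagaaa
Ndufaf4: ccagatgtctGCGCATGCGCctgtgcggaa
Ndufa11: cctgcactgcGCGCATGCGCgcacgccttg
Ndufa6: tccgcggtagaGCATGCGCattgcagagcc
Ndufa8: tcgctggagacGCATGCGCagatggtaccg
They lie at chr2:140170652-140170681 (plus strand), chr4:24897960-24897989 (plus), chr17:56717692-56717721 (plus), chr15:82354356-82354385 (minus) and chr2:36049328-36049357 (minus). In the same 4 libraries the log2 fold changes were -3.17, 0.88, -0.46, 0.55 and -0.44, again of both signs. The genes of the factors were themselves not called: Yy1 had 14.4, 38.5 and 102 CPM in Sdha-KO and 85.5, 73.2 and 82.4 CPM in WT libraries, and Nrf1 and Gabpa overlapped between genotypes.

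No gene of the other nuclear respiratory chain lists was called either. The fold change was above 0 in 6 of 9 genes of complex III (median 0.35 on the log2 scale), 9 of 13 tested genes of complex IV (median 0.46) and 10 of 17 genes of ATP synthase (median 0.30), beside 21 of 37 complex I subunit genes (median 0.11). It was above 0 in 3 of 7 tested genes of complex II and its assembly factors (median -0.04) and in 4 of 7 tested regulators of mitochondrial biogenesis (median 0.36). The difference between complex I and these lists was not tested. Uqcrq, a small subunit of complex III, had 228, 122 and 133 CPM in Sdha-KO and 53.6, 68.6 and 74.9 CPM in WT libraries, without overlap (log2 fold change 1.30, SE 0.46, edgeR adjusted p = 1.00). Cox6b2, a complex IV subunit known from testis, had 0, 8.93 and 10.6 CPM in Sdha-KO and 65.8, 59.9 and 70.8 CPM in WT libraries. Its groups did not overlap either (log2 fold change -3.33, SE 1.56, edgeR adjusted p = 1.00). Without both batch 1 libraries its log2 fold change was -2.73 (edgeR adjusted p = 0.0609), which does not pass the test.

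Enzymes that share substrates with complex I were not called either. Of 6 tested dehydrogenases that reduce ubiquinone by other routes, 3 had a fold change above 0 (median 0.11 on the log2 scale). Of 10 tested enzymes and carriers of NADH oxidation, 5 did (median 0.21). In this list 3 genes, Ldha, Got2 and Slc25a11, lay wholly above WT in Sdha-KO, and 1, Slc25a13, wholly below. Over all tested genes the shares were 5.04% and 9.27%. Ldha, which oxidises NADH while making lactate, had 141, 232 and 156 CPM in Sdha-KO and 76.7, 98.8 and 74.4 CPM in WT libraries, without overlap (log2 fold change 1.08, SE 0.42, edgeR adjusted p = 1.00). Nnt, which uses NADH to reduce NADP+ in mitochondria, had 0, 3.72 and 27.1 CPM in Sdha-KO and 92.8, 26.0 and 42.8 CPM in WT libraries, with overlap.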

How the data were processed

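The sources are 1 deposited table of whole-number counts per gene for 6 QuantSeq 3' mRNA libraries. Bowtie2, bedtools and mm10 are named in the submitters' processing notes; the sources used here give no versions, annotation, strand setting or handling of reads with several matches. The authors deposited these counts without normalization.

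From the counts, edgeR 4.0.16 (R 4.3.3) computed composition factors (TMM), CPM (counts relative to the scaled library size) and a quasi-likelihood test of genotype over 9963 genes kept by filterByExpr at a minimum count of 10, with Benjamini-Hochberg adjustment over all of them and a threshold of 0.05. The deposited counts give log2 fold changes, Sdha-KO over WT, with standard errors and 95% intervals. Alternatives used RLE factors, library totals, other filters, DESeq2 1.42.0, limma-voom (limma 3.58.1), a replicate block, single libraries left out, both batch 1 libraries left out, and 3 rows of very high counts (Rn45s, Rn4.5s and Lars2) left out. The ratios within batches 2 and 3 were added after the data were seen. The tests were also run on simulated data with a much smaller spread between libraries. That run does not show how they behave at the spread of these data.

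The labels give the replicate number as a batch too, so the numbers pair the samples. Deviations from the group means correlated at 0.147, 0.135 and 0.103 between libraries of the same number, and at -0.149 to 0.0874 between others. The main fit holds genotype alone and leaves this pairing out, and the replicate block is the alternative that takes it in. Library copies were checked, and no pair of libraries agreed within sampling noise. A symbol is repeated in 44 rows, which were kept. A CPM corresponding to 3 counts, the limit a count of 0 allows, was 0.25 to 0.666, and limits and intervals on counts cover counting error only. Values in every library are given for members whose groups did not overlap, the 7 core subunits, the 5 other subunits and 3 assembly factors with the highest mean CPM, the 3 with the smallest p in each direction and 3 genes with roles outside complex I; further genes were chosen after their values were seen. Results of 1 gene are not reported here by themselves and enter counts and sums only. The members, lists and markers were chosen with earlier results of these data known. Positions are from GENCODE M21 (mm10), copies from BLAST 2.17.0 and promoters from RefSeq (GRCm38.p6).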

Additional observations from a re-analysis of the deposited data

How the results depend on the processing

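No Nduf gene was called under any of 16 alternatives, and the lowest adjusted p was 0.221, for Ndufa9 without both batch 1 libraries and with the replicate block (edgeR). Over all genes, 5 were called; the count was 9 with library totals alone, 48 with no filter on low counts, 0 with at least 10 counts in all libraries of 1 genotype, 21 with DESeq2, 20 with limma-voom, 0 with the replicate block, 27 without both batch 1 libraries and 324 when those were left out and the block was used. Leaving out single libraries gave 0 (without WT 1) to 13 (without WT 3). The subunit median log2 fold change of 0.11 was 0.33 with library totals, 0.017 with the stricter filter, -0.14 with limma-voom, -0.070 with the replicate block and 0.20 without both batch 1 libraries, and -0.066 (without Sdha-KO 3) to 0.24 (without WT 1) with single libraries left out. The median of all tested genes was -0.13, and 0.05, -0.65 and -0.48 with library totals, limma-voom and the block. The log2 ratio of the mean subunit sums, 0.18, was 0.50 with library totals, 0.12 without both batch 1 libraries and -0.036 (without Sdha-KO 1) to 0.32 (without WT 1) with single libraries left out. Nduf genes with Sdha-KO wholly above WT numbered 3, and 13 without both batch 1 libraries, or 4 to 6 with single libraries left out; those wholly below numbered 4, and 1 with library totals, or 4 to 7. The assembly factor median stayed below 0 in all alternatives, at -2.69 to -0.15. The cause of these changes was not tested. Depth limits the assembly factors: Ndufaf5 had at most 8 counts in an Sdha-KO library.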
